A study of Mus musculus with 2 samples.

Results

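A set of 10 genes of the dermal matrix was followed through 2 single-cell libraries of mouse dorsal skin. They were chosen by name: 8 small leucine-rich repeat proteins (Dcn, Lum, Bgn, Fmod, Ogn, Prelp, Aspn and Podn), dermatopontin (Dpt) and fibronectin (Fn1), 10 of the 19046 genes measured once mitochondrial genes had been removed. Earlier results of these data were known when the choice was made, which limits what their counts beside all genes can show. Each library came from punch biopsies of 1 mouse, a wildtype C57BL/6J animal or an Eppk1-/- animal backcrossed into C57BL/6J. Neither mouse was treated, and their ages are not given in the sources used here. RNA was read with the Flex assay, in which pairs of probes are hybridised to fixed cells and counted by molecular identifier (UMI). With 1 mouse per genotype, genotype, animal and processing of the biopsy cannot be told apart. No test between genotypes was made, and every interval below covers counting error only.

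Small leucine-rich proteoglycans are secreted proteins built from a run of leucine-rich repeats, most of them with chondroitin, dermatan or keratan sulfate chains attached. They bind collagen fibrils and regulate their width and spacing, and some of them also bind growth factors of the TGF-beta family. Dermatopontin binds decorin and collagen and speeds fibril formation, and fibronectin is the scaffold protein on which cells pull through integrins and on which other matrix proteins are laid down.

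Several of the members lie side by side in the genome (GENCODE M21 annotation, GRCm38/mm10 build). Dcn (ENSMUSG00000019929, chr10:97479609-97518143, plus strand) is followed by Lum (ENSMUSG00000036446, chr10:97565128-97572703, plus strand) after 47.0 kb, with Kera and Epyc next in line. On chromosome 13, Ecm2, Aspn (ENSMUSG00000021388, chr13:49544443-49567565), Omd and Ogn (ENSMUSG00000021390, chr13:49608046-49624501) stand in a row on the plus strand, and 40.5 kb separate Aspn from Ogn. Prelp (ENSMUSG00000041577, chr1:133910304-133921414, minus strand) lies 116 kb from Fmod (ENSMUSG00000041559, chr1:134037254-134048277, plus strand). Dpt (ENSMUSG00000026574, chr1:164796644-164824266, plus strand), Fn1 (ENSMUSG00000026193, chr1:71585520-71653200, minus strand), Podn (ENSMUSG00000028600, chr4:108014791-108096445, minus strand) and Bgn (ENSMUSG00000031375, chrX:73483602-73495933, plus strand) have no other member beside them.

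The 250 bases before the annotated start are shown for the neighbours Aspn and Ogn, whose levels differed outside the fibroblasts, and for Bgn and Dpt, which differed in opposite directions between fibroblast groups 0 and 4 and groups 1 and 5. The sequences are from RefSeq on GRCm38.p6, read 5′ to 3′ along the plus strand, on which all 4 genes lie. For Ogn, Bgn and Dpt the start used for the window differs from the gene start given above. The Dpt window ends inside the gene as given there. RefSeq promoter entries matched 7 of the 10 members; Dcn, Lum and Fn1 were not matched. Capitals mark the letters TATAAA on either strand; the match nearest the 5′ end begins 207 bases before the start in Aspn and 229 bases before it in Ogn, where matches on both strands overlap.
Aspn, chr13:49544193-49544442: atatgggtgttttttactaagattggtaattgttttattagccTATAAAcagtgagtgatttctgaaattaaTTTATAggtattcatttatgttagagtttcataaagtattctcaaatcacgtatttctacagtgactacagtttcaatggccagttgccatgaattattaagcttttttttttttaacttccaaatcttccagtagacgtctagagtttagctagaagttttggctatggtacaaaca
Ogn, chr13:49607765-49608014: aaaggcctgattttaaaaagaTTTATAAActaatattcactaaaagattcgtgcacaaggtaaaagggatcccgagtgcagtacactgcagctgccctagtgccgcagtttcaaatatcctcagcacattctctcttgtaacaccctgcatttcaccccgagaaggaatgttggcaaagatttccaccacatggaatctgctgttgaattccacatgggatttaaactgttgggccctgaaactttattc
Bgn, chrX:73483351-73483600: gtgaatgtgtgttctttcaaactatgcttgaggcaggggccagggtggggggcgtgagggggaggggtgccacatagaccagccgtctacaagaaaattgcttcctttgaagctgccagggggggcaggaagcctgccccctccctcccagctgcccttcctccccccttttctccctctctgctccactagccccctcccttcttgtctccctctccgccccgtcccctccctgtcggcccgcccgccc
Dpt, chr1:164796413-164796662: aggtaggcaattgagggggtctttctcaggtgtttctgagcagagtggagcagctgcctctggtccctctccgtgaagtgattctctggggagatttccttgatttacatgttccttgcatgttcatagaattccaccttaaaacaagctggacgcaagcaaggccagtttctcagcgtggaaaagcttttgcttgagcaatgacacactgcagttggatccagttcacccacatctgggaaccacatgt
TATAAA occurred in 12.4% of all 32851 promoter windows of this length, and TGANTCA, the AP-1 motif, in 6.75%; TGANTCA was not found in the windows of the 7 matched members. G and C made up 30% of the Aspn window, 42% of the Ogn window, 48.8% of the Dpt window and 64.4% of the Bgn window, against a median of 52.4% over all windows. The matches are descriptions of letters and were not related to the levels below.

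The files held 9179 wildtype and 8811 knockout cells with 77638793 and 65118304 UMIs, of which 8875 and 8617 cells were kept. Droplet barcodes numbering 1211 occurred in both libraries. Eppk1 itself, which encodes the plakin epiplakin, stood at 3010 CPM (UMIs of a gene per 1000000 UMIs) in wildtype and 791 CPM in knockout keratinocytes; the place of its probes relative to the deleted part is not given in the sources used here. Cells were named from marker genes, and each name below means cells of that likeness. Fibroblasts (1845 wildtype and 2789 knockout cells) came from 3 clusters that carried 8 to 10 of 11 fibroblast markers and fell into 7 groups. Group 6 (154 and 140 cells) was led by Krt5 and Krt14 and is called mixed: 60.4% and 85.7% of its cells were among those with the highest doublet scores, which made up 5.99% of the wildtype library. The keratinocytes (5539 and 4073 cells) likewise held a sub-cluster with fibroblast markers (46 and 51 cells) and one with macrophage markers (63 and 29 cells).

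All 10 members had their highest mean level in fibroblasts. Of each member's UMIs in a library, 87.35% to 98.44% lay in fibroblasts in the wildtype and 89.7% to 96.7% in the knockout library. Cells with at least 2000 UMIs were thinned to 2000 and the others left out, here and in all shares after thinning. This kept 1699 of 1845 wildtype and 2594 of 2789 knockout fibroblasts. Such a fibroblast held a median of 6 of the 10 transcripts in both libraries, and no such fibroblast lacked all 10. Of these cells, 93.3% in the wildtype and 94.1% in the knockout library held 5 or more. Together the members made up a median of 50 of 2000 UMIs per wildtype fibroblast and 63 of 2000 per knockout fibroblast. In the order of cell types (melanocytes, with 26 and 14 cells, aside), fibroblasts came first for 10 of 10 members, and for 9 of them both libraries lay above both libraries of the next cell type. The exception was Fmod, where 7.66 CPM in knockout fibroblasts stood below 10.7 CPM in knockout endothelial cells. That endothelial level rests on 3 UMIs, with 0 UMIs in wildtype endothelial cells, so the order of the 2 is not settled. By the mean of both libraries, endothelial cells came second for 8 members, dendritic or Langerhans cells for Podn, and macrophages or monocytes for Fn1. Cluster 6 (325 and 636 cells) carried 9 of 10 macrophage or monocyte markers but was left unnamed and ranked on its own. Its Fn1 level was 161 and 314 CPM, and no ranking was made with it counted among the macrophages or monocytes. The second place of macrophages or monocytes for Fn1 is thus given only with cluster 6 kept apart. Even so, their 713 and 1427 CPM overlapped the 799.7 and 673 CPM of endothelial cells.

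**Figure D1:**
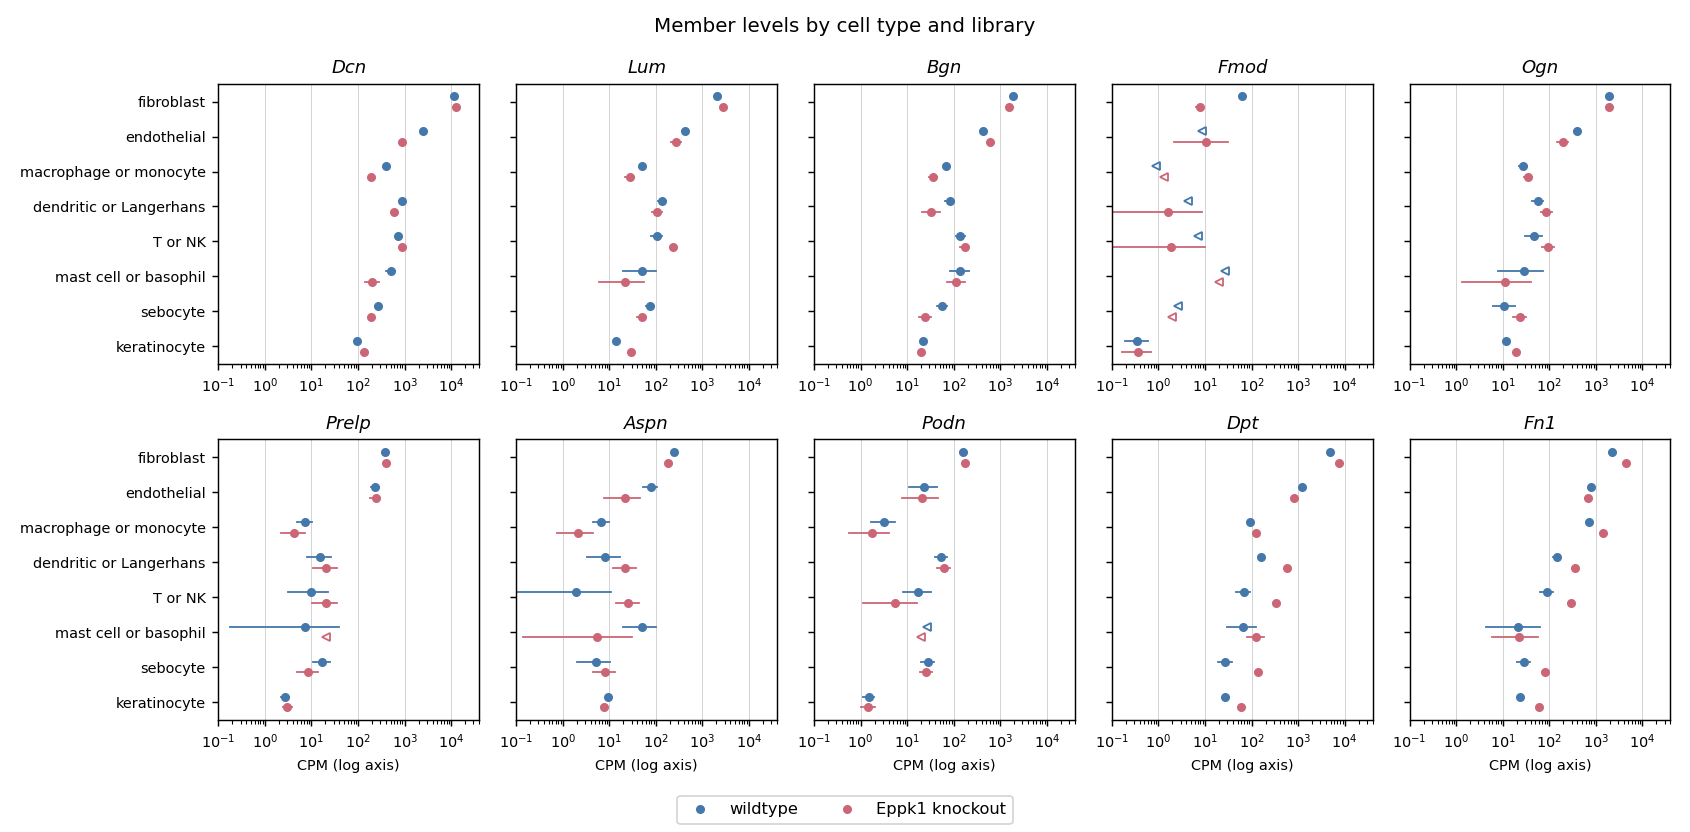
Level of each gene in CPM (log axis) in 8 cell types of the wildtype (blue) and Eppk1 knockout (red) library; points are library sums, lines are 95% Poisson intervals, and open triangles mark the upper limit where no UMI was counted. Fibroblasts stood highest in both libraries for every gene but Fmod, which had 3 UMIs in knockout endothelial cells. Fn1 in macrophages or monocytes, unnamed cluster 6 aside, reached 713 and 1427 CPM.

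The fibroblast groups differed in which members they held most of. The groups are given by number and leading genes: group 0 had Tmem229a and Smpd3 among its leading genes, group 1 was led by Pla2g5, Fgfr4 and Slc27a6, group 2 by Crp, Pltp and Adam12, group 3 by Angpt4, Gfra1 and C7, group 4 by Il1rl1, Cxcl2 and Cxcl1, and group 5 by Coch, Dkk2 and Egflam. The members and the other matrix genes of the lists below were kept out of the genes used for clustering. Decorin (Dcn), which binds type I collagen fibrils and TGF-beta, was highest in group 1, at 20706 CPM in wildtype and 24307 CPM in knockout cells. Its lowest levels were in group 4, at 6248 and 7933 CPM, so that Dcn was abundant in every group. Lumican (Lum), a keratan sulfate proteoglycan of fibrils, had the same top group, with 3464 and 6762 CPM in group 1 against 1171 and 1480 CPM in group 4. Group 1 was also the group richest in collagen transcripts: Col1a1 stood there at 324% of its level over all wildtype fibroblasts and at 394% over all knockout fibroblasts.

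Biglycan (Bgn), the closest relative of decorin and a ligand of innate immune receptors when set free, marked a sharper divide. It stood at 4877 and 4297 CPM in group 5, 3268 and 3492 CPM in group 1, and between 2320 and 2714 CPM in groups 2 and 3. In group 0 it was at 532 and 192 CPM, and in group 4 at 434 and 156 CPM. The levels of groups 0 and 4 lay below those of groups 1, 2, 3 and 5 in both libraries, without overlap. Asporin (Aspn), an aspartate-rich relative that binds TGF-beta and collagen, had its high groups in 2 (432 and 346 CPM) and 3 (435 and 349 CPM) and its lowest level in group 4 (96.9 and 73.5 CPM).

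Dermatopontin and osteoglycin were abundant in the groups poor in Bgn and in some of the others. Dpt was at 6497 and 10529 CPM in group 0, 5963 and 8803 CPM in group 4, 6221 and 7527 CPM in group 2 and 5904 and 7565 CPM in group 3, but 1428 and 2132 CPM in group 1 and 2798 and 2904 CPM in group 5. Osteoglycin (Ogn), also called mimecan, stood at 2718 and 2483 CPM in group 0 and 3008 and 2742 CPM in group 3, and at 755 and 574 CPM in group 1. In both libraries groups 1 and 5, the richest in Bgn, were the poorest in both genes, while groups 2 and 3 held much of Bgn and of Dpt. Fibronectin, Fn1, was lowest in group 5, at 460 and 465 CPM, and in the knockout library was highest in groups 0 and 4, at 6587 and 6215 CPM. In the wildtype library its levels in groups 0 to 4 lay closer together, between 1958 and 3024 CPM.

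Group 3 held the peak of podocan and PRELP. Podocan (Podn), a leucine-rich repeat protein that binds collagen, stood at 553 and 466 CPM in group 3 and at no more than 264 CPM in any other group of either library. Prelp, whose basic end binds heparan sulfate of basement membranes, stood at 733 and 671 CPM in group 3 and at 244 and 211 CPM in group 4. For Podn the 2 libraries of group 3 did not overlap with those of the other groups, and for Prelp group 3 was followed, by the mean of both libraries, by group 2 at 450 and 602 CPM.

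**Figure D2:**
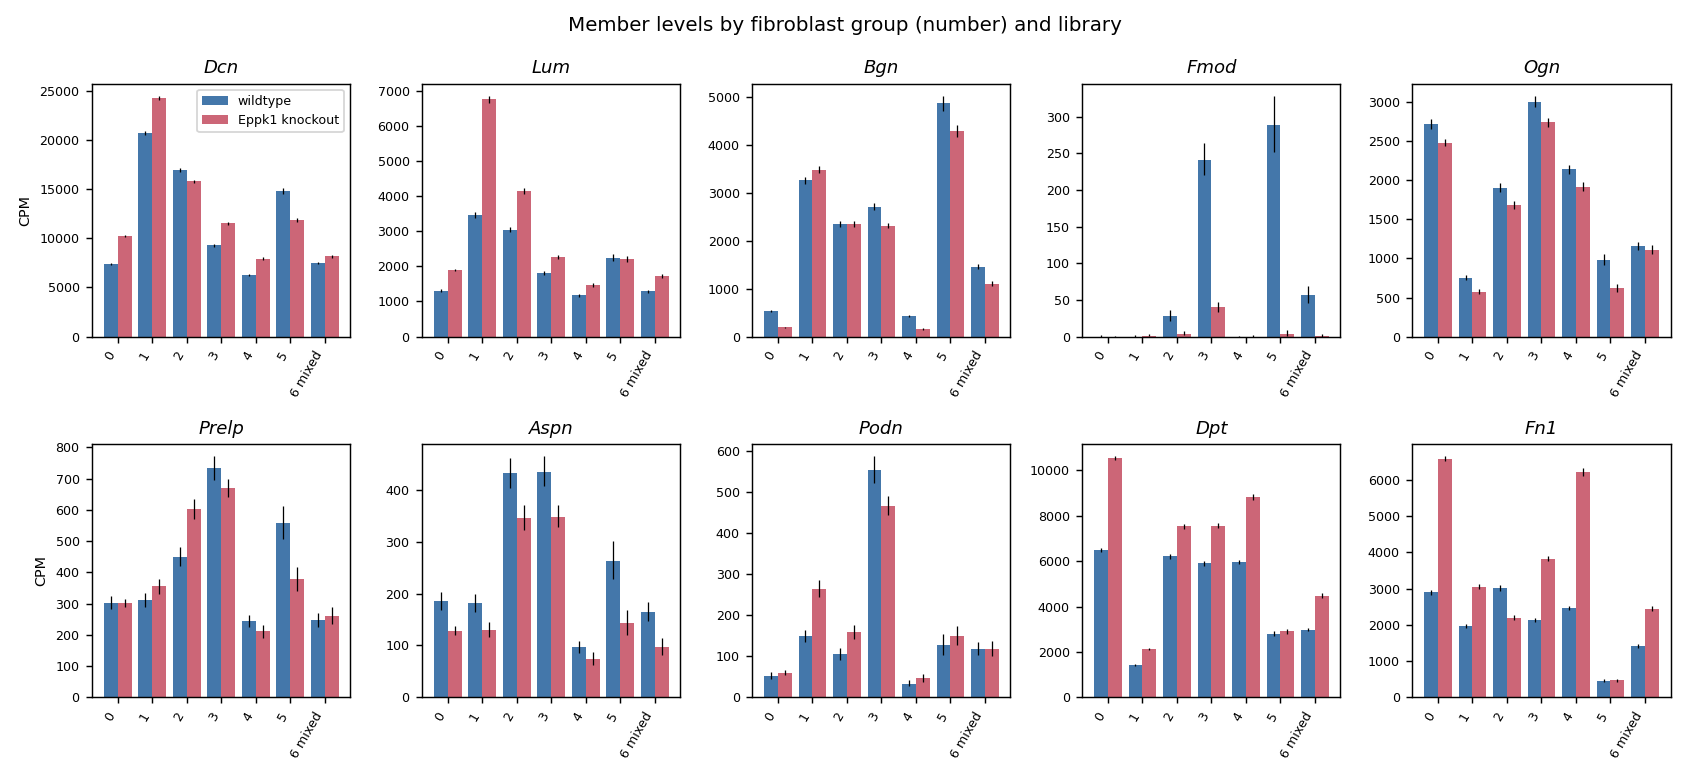
Level of each gene in CPM (bars from 0, 95% Poisson intervals as lines) in the 7 fibroblast groups, wildtype in blue and Eppk1 knockout in red; the scale differs between panels. Bgn was low in groups 0 and 4, Dpt was low in groups 1 and 5, Podn peaked in group 3, and Fmod was highest in groups 3 and 5 of the wildtype library (242 and 288 CPM).

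Fibromodulin (Fmod), a keratan sulfate proteoglycan known from tendon and cartilage that shares a collagen site with lumican, was the exception among the members, because very few cells carried it. Its UMIs came from 50 of 1845 wildtype fibroblasts (2.71%) and 36 of 2789 knockout fibroblasts (1.29%). In the wildtype library 7 cells held 50% of the 882 UMIs, and 156 UMIs sat in 1 cell. In the knockout library 3 cells held 50% of the 140 UMIs. For comparison, Dcn UMIs were found in 99.7% and 99.8% of fibroblasts, and 25.6% and 25.8% of the cells held 50% of them. Next after Fmod, Podn was the most concentrated member, with 50% of its UMIs in 5.26% and 7.82% of the fibroblasts.

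By group, Fmod stood at 242 CPM in group 3 and 288 CPM in group 5 of the wildtype library, and at 39.8 and 2.90 CPM in the same groups of the knockout library. Groups 0 and 4 held no Fmod UMI in either library. For scale, 3 UMIs would be 1.24 CPM in wildtype and 0.497 CPM in knockout cells of group 0, and 1.12 and 1.54 CPM in group 4. The library sums of this gene therefore describe a few cells in each biopsy.

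**Figure D3:**
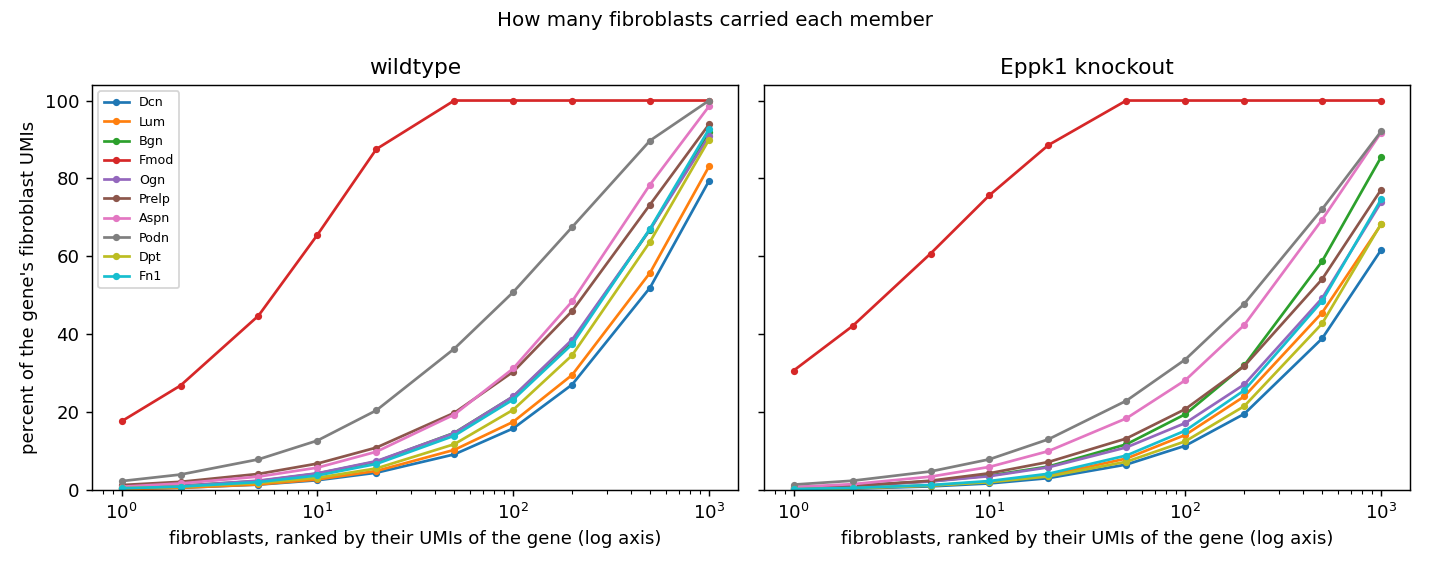
Share of each gene's fibroblast UMIs (percent, vertical axis) held by the fibroblasts with most of them, ranked on a log axis, in the wildtype (left) and Eppk1 knockout library (right). The curve of Fmod stands apart: 10 cells held 65.5% of its wildtype and 75.7% of its knockout UMIs, against 2.57% and 1.75% for Dcn.

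The genotypes were then set side by side in fibroblasts. Fibronectin and dermatopontin were the members that stood higher in the knockout library by the size used here, a log2 ratio of 0.5 or more. Fn1 was at 2241 CPM (95% Poisson interval 2217 to 2266) in the wildtype and 4391 CPM (4360 to 4421) in the knockout library, a log2 ratio of 0.97. Dpt was at 4745 CPM (4709 to 4780) and 7436 CPM (7397 to 7476), a log2 ratio of 0.65. Fmod lay lower by that size, at 61.9 CPM (57.9 to 66.1) and 7.66 CPM (6.44 to 9.04), a log2 ratio of -3.01 that rests on the few cells described above. Of the 10 members, 2 were thus higher and 1 was lower, beside 8.47% and 7.19% of all 11808 genes with at least 50 UMIs in fibroblasts, and the median of the members was 0.10 against 0.05 over all those genes.

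The other members lay within that size. Lum was at 2025 CPM (2002 to 2049) in the wildtype and 2834 CPM (2810 to 2859) in the knockout library, a log2 ratio of 0.48 that stands just inside it. Dcn was at 11524 and 12653 CPM, Podn at 158 and 177 CPM and Prelp at 383 and 399.7 CPM, with log2 ratios of 0.13, 0.16 and 0.06. Ogn was at 1905 CPM in wildtype and 1901 CPM in knockout fibroblasts. Bgn was at 1914 and 1557 CPM and Aspn at 241 and 185 CPM, log2 ratios of -0.30 and -0.38. All of these differences are between 2 animals, without a replicate of either.

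**Figure D4:**
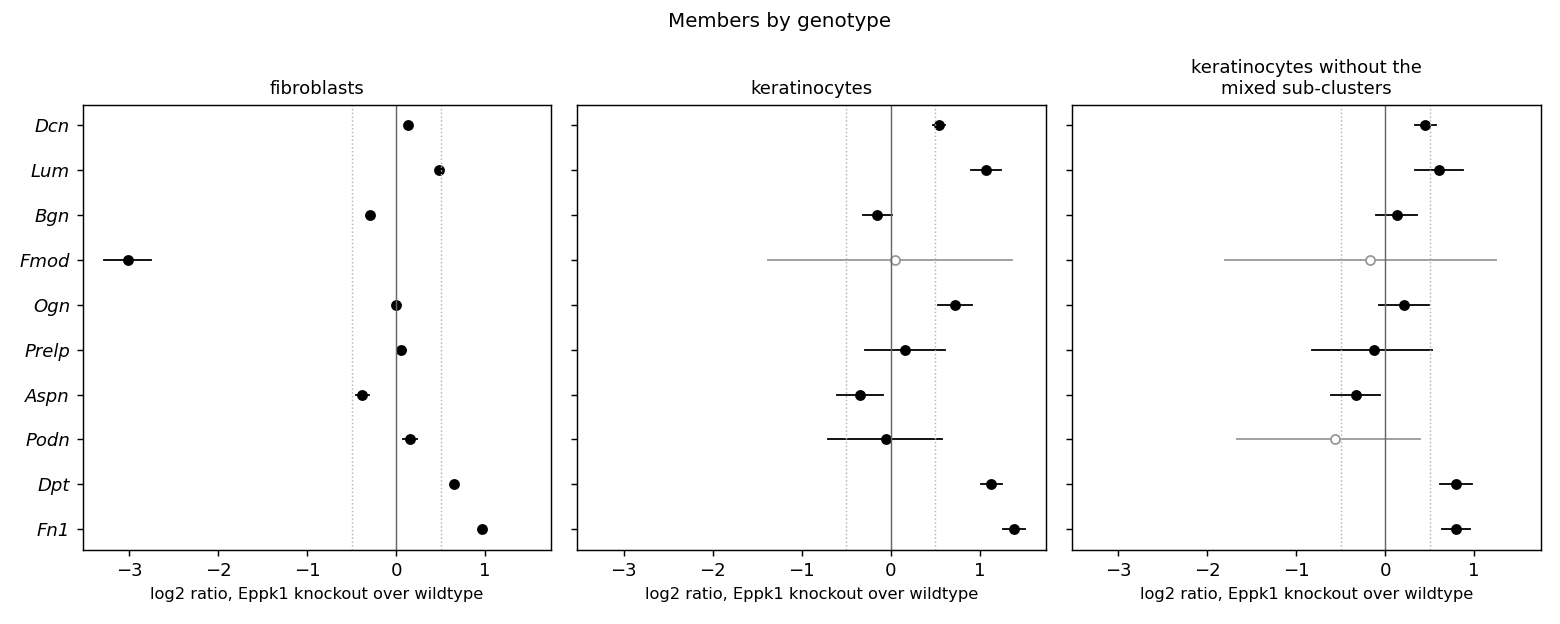
Log2 ratio of Eppk1 knockout over wildtype for each gene in fibroblasts, keratinocytes, and keratinocytes without the 2 mixed sub-clusters; lines are 95% counting intervals, dotted lines mark 0.5 and -0.5, and open grey points have fewer than 50 UMIs. In fibroblasts Fn1 (0.97) and Dpt (0.65) lay to the right and Fmod (-3.01) far to the left.

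The mix of fibroblast groups differed between the libraries, and the members' levels differ between groups. Group 0, rich in Dpt and Fn1, made up 14.25% of wildtype and 31.2% of knockout fibroblasts, and group 1, rich in Dcn and Lum, made up 23.1% and 15.7%. The pooled levels weight each group by its UMIs. With the groups of both libraries weighted instead by their wildtype shares of cells, the log2 ratio was 0.73 for Fn1, 0.47 for Dpt, 0.60 for Lum, -0.11 for Bgn and -0.19 for Ogn. The wildtype levels moved as well, for Bgn from 1914 to 2288 CPM and for Dpt from 4745 to 4426 CPM. The change in the ratios thus does not show the group mix alone. Dpt fell just short of the size and Lum passed it in this weighting.

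The genotype difference of fibronectin was not the same in all groups. Fn1 was at 2466 and 6215 CPM in group 4 (log2 ratio 1.33), 2905 and 6587 CPM in group 0 (1.18), and 2137 and 3825 CPM in group 3 (0.84). In group 2 it went the other way, with 3024 CPM in wildtype and 2199 CPM in knockout cells (-0.46), and in group 5 the values were 460 and 465 CPM. Dpt was higher in the knockout library in all 7 groups, with log2 ratios between 0.05 in group 5, where the interval included 0, and 0.70 in group 0. Lum had its largest ratio, 0.96, in group 1, where it was also most abundant.

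Biglycan was lower in the knockout library in the groups where it was already scarce. Bgn had a log2 ratio of -1.47 in group 0 (532 and 192 CPM) and of -1.47 in group 4 (434 and 156 CPM), but between -0.23 and 0.10 in groups 1, 2, 3 and 5. Fn1 and Bgn thus differed most, in opposite directions, in the same pair of groups. Median depth was 8315 UMIs per wildtype and 6901.5 UMIs per knockout cell in group 0, and 10090 and 7439 UMIs in group 4. It was also lower in knockout cells of groups 1, 2 and 3, but not of groups 5 and 6. The part of depth in these ratios was not tested. Aspn was lower in the knockout library in all 7 groups, with log2 ratios between -0.88 in group 5 and -0.32 in groups 2 and 3, and the ratio of Ogn was below 0 in all 7, between -0.66 in group 5 and -0.05 in group 6, where the interval included 0. Podn was higher in group 1, at 149 and 264 CPM (log2 ratio 0.83), and in group 2, at 105 and 159 CPM (0.60), but not in group 3, its main group, at 553 and 466 CPM (-0.25). Keratinocyte transcripts in the fibroblasts moved too: 12 keratinocyte markers summed to 2245 CPM in wildtype and 1786 CPM in knockout fibroblasts, and to 641 and 533 CPM without the mixed group 6, where Fn1 (0.95), Dpt (0.62) and Fmod (-2.92) kept their side of the size.

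Outside the fibroblasts most members stood at a small percent of their fibroblast level, as other fibroblast genes did. As a yardstick, 15 fibroblast genes (such as Col1a1, Pdgfra and Clec3b) were read in each cell type as a percent of their own level in fibroblasts of the same library. The yardstick includes all the markers by which fibroblasts were named, so its low percents elsewhere are partly set by the naming. The members were not used for naming. In keratinocytes their median was 0.643% in the wildtype and 0.837% in the knockout library, and that of the members was 0.758% and 1.06%. In unnamed cluster 6, led by Stab1, Cd209b and Ccl8, the yardstick was 7.99% and 7.91% and the members' median 7.15% and 7.94%. The members that stood farthest above the yardstick in both libraries are described below, with those that passed its highest gene in 1 library where named; the part of fibroblast transcripts in those levels was not tested beyond this reading.

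Fibronectin was such a gene in one cluster of macrophages or monocytes. Fn1 stood at 2391 CPM in wildtype and 2685 CPM in knockout cells of cluster 11, led by Ighm, Lyz1 and Slc7a11 and carrying Il1b and Ccr2 among its 10 leading genes. This was 107% and 61.1% of the fibroblast level, where the yardstick was 2.58% and 2.23% and its highest gene 5.10% and 3.71%. After thinning, 52.1% (95% Clopper-Pearson interval 43.5% to 60.7%) of wildtype and 44.4% (37.3% to 51.6%) of knockout cells of this cluster held a UMI of Fn1. In cluster 10, led by Fcna, Padi4 and Slfn4 with Lyve1, Fn1 was at 56.7 and 25.9 CPM, and 7.5% and 3.1% of its cells held a UMI. Over both clusters together, unnamed cluster 6 aside, Fn1 was at 713 and 1427 CPM. Of both clusters, cluster 11 made up 44.0% and 50.9% of cells and 28.1% and 52.7% of UMIs, on which the pooled level rests. The median depth of cluster 10 was 11855 UMIs per wildtype cell and 5692 UMIs per knockout cell. Within cluster 11 the log2 ratio between genotypes was 0.17.

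Podocan stood out in dendritic or Langerhans cells and in sebocytes. Podn was at 53.9 CPM in wildtype and 61.4 CPM in knockout dendritic or Langerhans cells, 34.0% and 34.7% of the fibroblast level against a yardstick of 3.33% and 4.4% whose highest gene was at 5.91% and 9.04%. Dcn (7.67%), Lum (6.77%) and Fn1 (6.38%) also passed that gene in the wildtype library alone, and Aspn (11.9%, on 14 UMIs) in the knockout library alone. After thinning, 11.3% and 9.62% of these cells held a UMI, against 0.302% and 0.140% of keratinocytes. In sebocytes Podn was at 27.5 and 25.9 CPM, 17.3% and 14.6% of the fibroblast level, with a yardstick of 1.54% and 1.74%. These levels rest on 46 and 39 UMIs in dendritic or Langerhans cells and 38 and 48 UMIs in sebocytes.

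PRELP stood above the yardstick in the endothelial cells of both libraries. Prelp was at 228 CPM (185 to 278) in the wildtype and 238 CPM (185 to 303) in the knockout library, 59.6% and 59.7% of the fibroblast level. Only 53 wildtype and 33 knockout cells were deep enough to be thinned, and 24.5% and 27.3% of these held a UMI. The yardstick in these cells was high, at 19.9% and 9.36%, with its highest gene at 27.1% and 24.4%. Bgn was at 434 and 609 CPM, 22.7% and 39.1% of the fibroblast level, so that it passed the highest yardstick gene in the knockout library alone. Fn1, at 799.7 and 673 CPM (35.7% and 15.3%), and Aspn, at 76.9 and 21.4 CPM (32.0% and 11.5%, on 33 and 6 UMIs), passed it in the wildtype library alone. The endothelial cluster (131 and 66 cells) carried 3 of 9 endothelial markers, and its median depth was 1306 and 1884.5 UMIs per cell. It was also led by Car3, Fabp4 and Des, genes of muscle and fat, whose part in these levels was not tested. In melanocytes Prelp had 6 and 4 UMIs, at 106 CPM (39.0 to 231) and 156 CPM (42.6 to 400.4).

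Asporin came near its fibroblast level in a keratinocyte sub-cluster. In keratinocyte sub-cluster 7 (322 and 166 cells), a hair follicle sub-cluster led by Pthlh, Robo2 and Megf6, Aspn was at 186 CPM (164 to 211) in the wildtype and 195 CPM (164 to 232) in the knockout library. This was 77.4% and 105% of the fibroblast level, where the yardstick was 0.392% and 0.364%; the wildtype interval lay below the 241 CPM of wildtype fibroblasts, and the knockout interval included the 185 CPM of knockout fibroblasts. After thinning, 21.1% (16.4% to 26.4%) and 22.8% (16.04% to 30.8%) of its cells held a UMI. The genotypes did not differ there beyond their counting intervals, while Aspn was lower in every fibroblast group of the knockout library. In the other keratinocyte sub-clusters, the mixed ones aside, Aspn was at no more than 15.5 CPM, the value of wildtype sub-cluster 6. Ogn, its neighbour on chromosome 13, was at 9.17 and 7.35 CPM in sub-cluster 7, 0.481% and 0.386% of the fibroblast level.

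Sub-cluster 6, a hair follicle sub-cluster led by Angptl7, Fam13a and Krt24 with Lgr5 among its 10 leading genes, held several members above the yardstick of 0.551% and 0.703%. Bgn was at 46.6 and 59.9 CPM (2.44% and 3.84% of the fibroblast level), Fn1 at 57.6 and 198 CPM (2.57% and 4.52%), Aspn at 15.5 and 10.6 CPM (6.46% and 5.70%) and Prelp at 6.33 and 11.7 CPM (1.65% and 2.94%). Aspn rested on 27 and 9 UMIs and Prelp on 11 and 10 UMIs. Podn and Fmod also lay above the yardstick, each at 4.03 and 5.87 CPM on only 7 and 5 UMIs. Dcn, Lum, Ogn and Dpt lay between 0.410% and 0.580% in the same cells, near the yardstick. Fbln1, one of the yardstick genes, itself reached 40.5% and 30.4% there, which sets the upper end of the range in follicle cells. Fn1 was also above the yardstick in sub-cluster 8, led by Ramp1, Sncg and Fgf18, at 61.5 and 133 CPM, and in the proliferating sub-cluster 10 at 81.5 and 83.8 CPM.

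**Figure D5:**
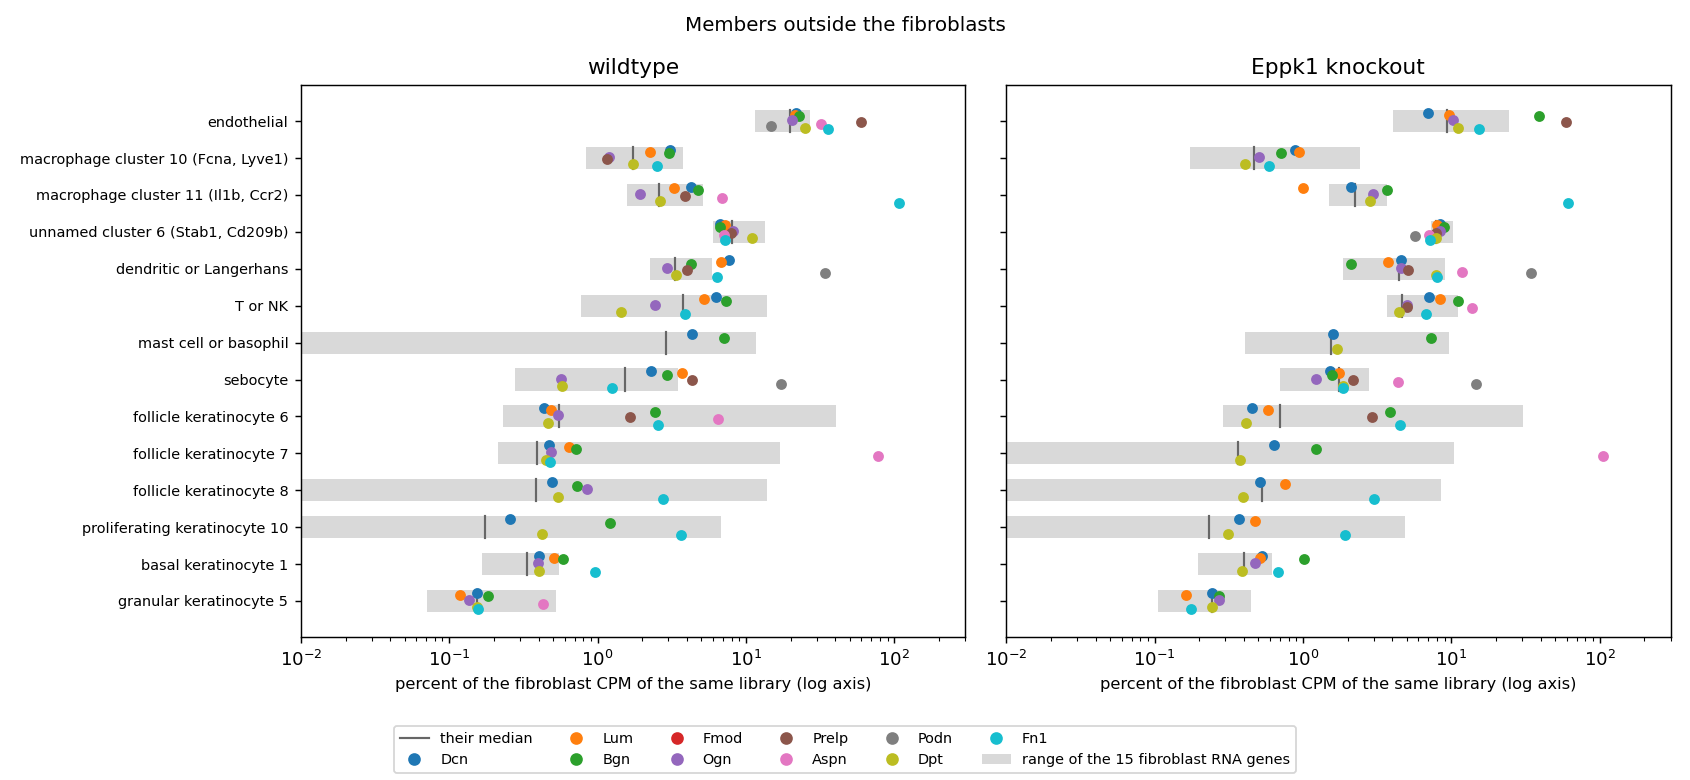
Each gene's level as a percent of its fibroblast level in the same library (log axis) in 14 cell types, clusters or sub-clusters, shown where at least 10 UMIs were counted; grey bars span the 15 yardstick genes and the dark tick is their median. Aspn in follicle sub-cluster 7 (77.4% and 105%), Fn1 in macrophage cluster 11 (107% and 61.1%), Podn in dendritic or Langerhans cells (34.0% and 34.7%) and Prelp in endothelial cells (59.6% and 59.7%) lie to the right of the grey bars.

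Along the interfollicular epidermis Dcn was low and near the yardstick. In basal sub-cluster 1, led by Has3, Adam8 and Ptgs2, Dcn was at 46.6 CPM in wildtype and 67.0 CPM in knockout cells, 0.405% and 0.529% of the fibroblast level, with a yardstick of 0.336% and 0.403%. In granular sub-cluster 5 Dcn was at 17.6 and 30.8 CPM, 0.153% and 0.243%, with a yardstick of 0.154% and 0.242%. As CPM, Dcn and the yardstick were thus both lower in sub-cluster 5 than in sub-cluster 1, in both libraries. Median depth was 4158 and 3825 UMIs per cell in sub-cluster 1 but 22412 and 20680.5 UMIs in sub-cluster 5. Dcn had 168 and 194 UMIs in the 836 and 727 cells of sub-cluster 1. It had 171 and 166 UMIs in the 418 and 252 cells of sub-cluster 5, so the lower CPM does not mean fewer Dcn UMIs per cell. In sub-cluster 0, led by Krt1 and left unnamed, Dcn was at 32.2 and 41.8 CPM. Fn1 followed the same order, at 21.6 and 29.7 CPM (0.966% and 0.676%) in basal sub-cluster 1, above its highest yardstick gene at 0.545% and 0.619%, and 3.51 and 7.78 CPM in granular sub-cluster 5. Bgn, at 11.1 and 15.9 CPM in sub-cluster 1, passed that gene in both libraries too. In all, 2 members passed it there in the wildtype and 4 in the knockout library. Sub-cluster 1 carried 3 of 7 basal markers, and basal sub-cluster 3 carried 6 of 7. In sub-cluster 3 the highest yardstick gene stood at 0.429% and 0.467%. Fn1, at 17.0 and 41.1 CPM, passed it in both libraries, but Bgn, at 8.12 and 6.62 CPM, passed it in neither.

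Between genotypes, Fn1 and Dpt were higher in knockout keratinocytes too, and so were Dcn, Lum and Ogn. Dcn was at 93.0 and 135 CPM (log2 ratio 0.54), Lum at 14.1 and 29.6 CPM (1.07), Ogn at 11.9 and 19.6 CPM (0.73), Dpt at 27.5 and 60.3 CPM (1.13) and Fn1 at 23.0 and 59.9 CPM (1.38). Of the 9 members with at least 50 UMIs in keratinocytes, 5 were higher by 0.5 or more and 0 lower, beside 3.27% and 4.59% of 11821 genes. Of the 15 yardstick genes, 6 were higher and 0 lower in the same cells, and their summed level was 557 CPM in wildtype and 625 CPM in knockout keratinocytes. The knockout library held more fibroblasts, 2789 against 1845, and the part of fibroblast transcripts in these ratios was not tested.

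Without the 2 mixed sub-clusters the keratinocyte levels were lower. Dcn was at 35.0 and 47.9 CPM (0.45), Lum at 6.64 and 10.1 CPM (0.60), Ogn at 6.78 and 7.85 CPM (0.21), Dpt at 13.02 and 22.6 CPM (0.80) and Fn1 at 17.0 and 29.6 CPM (0.80). Of 8 members with at least 50 UMIs, 3 were higher and 0 lower by 0.5, beside 2.60% and 4.82% of 11574 genes, and of the 15 yardstick genes 4 were higher and 1 lower. As a percent of the fibroblast level of its own library, Dpt stood at 0.274% and 0.304%, and Fn1 at 0.759% and 0.675%, in these keratinocytes. The yardstick in the same cells was 0.277% and 0.345%, so Dpt lay near or below it and Fn1 above it. Its highest gene, Fbln1, was at 3.66% and 2.13%, above both. These percents pool sub-clusters that differed. For Fn1 the log2 ratio was 1.78 (1.42 to 2.16) in follicle sub-cluster 6, at 57.6 and 198 CPM. It was -0.15 in sub-cluster 2, left unnamed, where the interval included 0. The part of fibroblast transcripts in these levels and ratios was not tested.

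The wider pathway was read in fibroblasts from lists of genes, which were chosen with earlier results of these data known. The counts below stand beside 8.47% higher and 7.19% lower among all 11808 genes with at least 50 UMIs, whose median was 0.05. Of the relatives of the leucine-rich repeat family, Ecm2 (315 and 324 CPM), Omd, osteomodulin (77.8 and 85.2 CPM), and Tsku, tsukushi (32.3 and 37.5 CPM), were the abundant ones and lay within 0.5. Among 7 relatives with at least 50 UMIs, 3 were higher by 0.5 or more and 0 lower, with a median of 0.21: Chad, chondroadherin (1.47 and 3.50 CPM, log2 ratio 1.23), Chadl (4.0 and 6.73 CPM, 0.74) and Optc, opticin (1.82 and 2.68 CPM, 0.54). Epyc was at 5.26 and 3.88 CPM, and 3 relatives were under that minimum, Kera with 20 and 12 UMIs, Nyx with 7 and 13 UMIs and Podnl1 with 3 and 1 UMIs. All 3 of the higher relatives were scarce, and the interval of Optc, -0.16 to 1.30, included 0.

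Among 12 collagens, the partners these proteins bind, 1 was higher and 1 lower, with a median of -0.04. Col14a1, a fibril-associated collagen, was at 408 and 940 CPM (log2 ratio 1.204) and Col12a1, its relative of tendon and other dense tissue, at 77.1 and 27.8 CPM (-1.47). Col1a1 and Col1a2, the chains of type I collagen, were at 30131 and 28630 CPM and at 19694 and 16934 CPM, both within 0.5. Of 22 other fibril partners 5 were higher and 3 lower, with a median of 0.19. The higher ones, named here after their values were seen, were Postn, periostin (572 and 952 CPM, 0.73), Efemp1 (911 and 1389 CPM, 0.61), Mfap5 (522 and 808 CPM, 0.63), Fbn2, fibrillin-2 (5.19 and 10.1 CPM, 0.96), and Fbln1, fibulin-1 (496 and 706 CPM, 0.51). Lox, given below, was among the lower ones. Thbs2, thrombospondin-2, was at 2656 and 1299.5 CPM (-1.03), Tnc, tenascin-C, at 17.7 and 4.49 CPM (-1.97), and Fbn1, fibrillin-1, at 1735 and 1628 CPM.

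The enzymes that build the chondroitin and dermatan sulfate chains of Dcn and Bgn stayed within 0.5 in all 20 cases, with a median of 0.10; Dse, the epimerase of dermatan sulfate, was at 154 and 149 CPM, Chpf at 132 and 152 CPM, Xylt2 at 11.6 and 16.1 CPM (0.48) and Chst15 at 18.7 and 14.6 CPM (-0.36). Of 6 genes for keratan sulfate, the chain of Lum and Fmod, 3 were higher and 0 lower, with a median of 0.49: Chst1, a keratan sulfate sulfotransferase, was at 15.3 and 32.5 CPM (1.08) and B4galt4 at 10.9 and 21.0 CPM (0.94), St3gal3 was at 10.8 and 15.4 CPM (0.51), and B4galt1 (483 and 428 CPM) and Fut8 (35.4 and 40.2 CPM) lay within 0.5. Chst1 was itself among the 10 leading genes of group 0, a group with a larger share in the knockout than in the wildtype library. The part of the group mix in these ratios was not tested.

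Of 16 receptors and assembly genes of fibronectin, 2 were higher and 3 lower, with a median of 0.01. The integrin chains Itgb5 (511 and 486 CPM) and Itgb1 (353 and 343 CPM) lay within 0.5, Sdc2, syndecan-2, was at 111 and 178 CPM (0.68), and Fblim1 was at 1.26 and 2.30 CPM (0.84). The 3 lower ones, named after their values were seen, were Itga5, a chain of the classical fibronectin receptor (194 and 128 CPM, -0.60), Sdc4, syndecan-4 (401 and 262 CPM, -0.61), and Itga3 (15.7 and 10.1 CPM, -0.64). Of 22 receptors and enzymes that bind or cut the members, 4 were higher and 0 lower, with a median of 0.07. Tgfbr2 (2071 and 1845 CPM) and the gelatinase Mmp2 (1765 and 2129 CPM) were the most abundant, and Met (19.2 and 34.4 CPM, 0.84) and Tll1, a protease of the tolloid family (33.8 and 51.3 CPM, 0.60), had the largest ratios; the other two higher ones, named after their values were seen, were Htra1 (746 and 1063 CPM, 0.51) and Tgfb2 (157 and 223 CPM, 0.50). The 15 yardstick genes held 4 higher and 1 lower, with a median of 0.12. Their largest ratios were those of Cpxm1 (325 and 615 CPM, 0.92) and Lox, lysyl oxidase (611 and 352 CPM, -0.79). Among these higher and lower genes, Mfap5, Fbln1 and Lox were also counted with the fibril partners, so the counts of these lists are not separate.

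The genes whose pattern was most like each member's were sought over 31 cell types, groups and sub-clusters in both libraries, 62 points, among 13590 genes. The points share libraries and the divide between fibroblasts and all other cells, so the correlations of log2(CPM + 1) are descriptions. Dcn ran closest with Col3a1 (r = 0.99) and Col1a2 (0.98), Lum with Adamts2 (0.98) and Scara5 (0.96), Dpt with Cpxm1 and Clec3b (both 0.97), and Ogn with C1s1 and Dpep1 (both 0.97). Bgn ran closest with Col15a1 (0.95) and Fkbp7 (0.93), and Prelp with Jam3 (0.96) and Pcolce2 (0.95). Fn1 was nearest to Acvrl1 (0.91) and C1s1 (0.90), Aspn to Col5a2 (0.92) and Syde1 (0.90), and Podn to Svep1 (0.91) and Sh3rf3 (0.90). Fmod had the loosest match, with Adamtsl2 and Spag17 (both 0.73), and was the member farthest from each of the other 9.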

How the data were processed

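The authors dissociated whole dorsal skin, hybridised fixed cells with a mouse transcriptome probe set, pooled the cells for washing, and made UMI counts per cell and gene with Cell Ranger on mm10 (GRCm38), per the labels and the study's methods. The deposited matrices hold raw UMI counts, unnormalized, 1 matrix per library. Both libraries carry the same sample index and different probe barcodes. The study's limits on UMIs per cell (200 to 45000), genes per cell (100 to 7500) and the mitochondrial share (10% or less) were applied, and 13 mitochondrial genes were removed. Cells were log-normalized, integrated by RPCA over 50 components and 2000 variable genes (132 members and list genes left out) and clustered with Louvain at resolution 0.5, fibroblasts at 0.3 (Seurat 5.3.0, R 4.3.3). Cell type markers outside these lists were not left out. Doublets were not removed; Scrublet scores (scanpy 1.11.5) served as an alternative, as did TMM scaling (edgeR 4.0.16). UMIs were summed per library and cell type and divided by the total (CPM). Log2 ratios took 0.5 UMI added to each sum, with exact conditional intervals; list counts needed 50 UMIs over both libraries. Intervals were exact Poisson or Clopper-Pearson at 95%, and shares of cells used cells thinned to 2000 UMIs, with cells under 2000 UMIs left out. Kept cells had a median of 4963 UMIs in the wildtype and 5006 UMIs in the knockout library. The number of probes differs between genes, so CPM values were compared within a gene. The ratio step was tested on simulated data. The members and lists were chosen with earlier results of these data known. Genes named were all members, all measured relatives of the family, the 2 most abundant and the 2 with the largest ratio of each other list, the 2 most like genes per member and the 3 leading genes per fibroblast group, of which 1 is not reported here; the other genes named by a list or cluster are markers or leading genes. Alternatives were resolution, integration, doublets, scaling, weighting, cell filters, depth, shared droplets and mixed sub-clusters.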

Additional observations from a re-analysis of the deposited data

Results flagged for a closer look

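The genotype ratio of 5 members ran in opposite directions in different fibroblast groups, with both counting intervals clear of 0. For Fn1 the log2 ratio was 1.33 in group 4 and -0.46 in group 2, a gap of 1.79. For Bgn it was 0.10 in group 1 and -1.47 in group 0, a gap of 1.57. For Podn it was 0.83 in group 1 and -0.25 in group 3, a gap of 1.07. For Prelp it was 0.42 in group 2 and -0.56 in group 5, a gap of 0.98. For Dcn it was 0.46 in group 0 and -0.32 in group 5, a gap of 0.79. Each gap was taken between the highest and the lowest such group, and genes with many UMIs have narrow counting intervals. The rule was not applied to all genes, so whether 5 of 10 members is an unusual share cannot be read here. With 1 library per genotype none of these gaps was tested.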

How the results depend on the processing

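Among the alternative values of the main counts and medians, 93 stayed close to the value reported and 17 moved. In fibroblasts the count of members past 0.5 in either direction stayed at 2 and 1 under the 12 alternatives (at wildtype shares of groups the 2 were Fn1 and Lum), and the members' median of 0.10 became 0.071 with no cell filter, 0.053 with TMM scaling, 0.048 after centring on all genes and 0.070 without the keratinocyte-marked group, the last chosen after seeing the data. Over 12 alternatives the log2 ratio ran from 0.73 to 0.99 for Fn1, from 0.47 to 0.70 for Dpt and from -3.82 to -2.87 for Fmod. Ogn had the same sign in 9 of 12. In keratinocytes the 5 members at 0.5 or more became 3 with no cell filter, 3 at wildtype shares of sub-clusters, 2 among cells without a collagen UMI, 2 without the fibroblast-marked sub-cluster and 3 without both mixed sub-clusters, the last chosen after seeing the data. Their count at -0.5 or less, 0, became 1 with no cell filter, 1 after thinning and 1 without the fibroblast-marked sub-cluster. Their median of 0.54 became 0.36, 0.31, 0.37, 0.15 and 0.33 with no cell filter, at wildtype shares, after thinning, without the fibroblast-marked sub-cluster and without both mixed ones. Fn1 and Dpt were at 0.5 or more in all 14 keratinocyte alternatives. The cause of these moves was not tested. No paired analysis was possible because each genotype is 1 library. Counts under 50 UMIs, as for Fmod outside fibroblasts, limit what can be read.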
